A study of Mus musculus with 11 samples.

Results

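The cells described here are regulatory T (Treg) cells that carried RNA of the transcription factor Foxp3 but none of 3 genes of differentiated effector Treg cells. They came from a single-cell RNA library of activated helper T cells. A cell was included when it had at least 1 unique molecular identifier (UMI, the tag that counts 1 captured RNA molecule) of Foxp3 and at least 1 UMI summed over the 3 CD3 genes Cd3d, Cd3e and Cd3g. It also had to have none of Cxcr5 (the follicular homing receptor), Cd79a (a B cell receptor chain), Klrg1, Itgae or Gzmb, and fewer than 2 of the 4 division genes Mki67, Top2a, Birc5 and Cdk1. These rules held for 783 of the 13190 cells that passed filters, or 5.94% of cells (5.54 to 6.35), and for 30.1% (28.4 to 31.9) of the 2598 Foxp3-positive T cells. The rule uses measured RNA, so the levels of the genes it names describe the choice of cells and are not findings.

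The library was made with a droplet-based 3′ kit from sorted CD44-positive CD4 T cells of C57BL/6 draining lymph nodes, from mice heterozygous for a Sostdc1-EGFP reporter, and all groups below share that sort, strain and genotype. CD44 is an adhesion receptor that rises on T cells after antigen contact. The number of animals is not given in the labels. The study is about follicular helper T cells that make Sostdc1, a secreted antagonist of Wnt and BMP signals. With 1 library there is no replicate, so no difference below has a test or a replicate check. One library was used of the 11 samples, and values in parentheses after a level or ratio bound its exact 95% interval, which reflects counting error alone.

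Treg cells restrain other lymphocytes, and mice or people without working Foxp3 develop fatal autoimmunity. They live on interleukin 2 made by other T cells, which they capture through the high-affinity receptor chain CD25, and they suppress through CTLA-4, latent TGF-beta and adenosine, among other means. In lymphoid organs, resting (central) Treg cells keep homing receptors and factors of naive T cells, while effector Treg cells gain tissue-homing receptors and molecules such as KLRG1, CD103 (Itgae) and granzyme B.

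The cells were compared with 3 other groups of the same library. The main comparison group held 5854 T cells with no UMI of Foxp3, Cxcr5 or Pdcd1 (PD-1), called Foxp3-negative T cells. A second held 1026 effector-marker Treg cells, which met the same rules but had at least 1 UMI of Klrg1, Itgae or Gzmb. The last held 80 cells with UMIs of Foxp3, Cxcr5 and Pdcd1, genes that together mark follicular regulatory T cells. All groups excluded dividing cells by the same rule. Foxp3-negative T cells and the 80 cells were not selected on Klrg1, Itgae or Gzmb, and the 783 cells were not selected on Pdcd1. Median UMIs per cell were 5480 in the Treg cells without effector markers, 5707.5, 5832 and 8401.5 in the other groups in that order, and 4699 in 469 B cells used as a measure of free RNA. All 15002 barcodes of the library were distinct.

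The edges of the gate hold many cells. Of the 783 cells, 432 (55.2%) had exactly 1 Foxp3 UMI, 171 had 2 and 180 had 3 or more, up to 9. Just outside it, 241 of the 1026 effector-marker Treg cells had a single UMI summed over Klrg1, Itgae and Gzmb. Pdcd1 was not part of the rule and was found in 112 of the 783 cells. Free RNA can give a cell a Foxp3 UMI that it did not make. Of 6713 T cells that met every rule other than Foxp3 itself, 11.7% (10.9 to 12.5) had a Foxp3 UMI at a median of 5693 UMIs. Of the B cells, which should lack Foxp3, 2.77% (1.48 to 4.69) had a Foxp3 UMI, and none had 2 or more. The B cell share applied to 6713 cells comes to 186 cells (99.6 to 315), or 23.8% of the 783 (12.7 to 40.2). How many of the 783 cells carried Foxp3 from free RNA was not tested. Conversely, a Treg cell in which no Foxp3 UMI was captured would be counted among Foxp3-negative T cells. How many such cells that group held was not tested, and all ratios against it carry this limit.

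The markers of the label that the gate did not use were Lrrc32 (ENSMUSG00000090958), Gpr83 (ENSMUSG00000031932), Ikzf4 (ENSMUSG00000002578) and Capn3 (ENSMUSG00000079110). They were named with earlier results of these data known, so their levels are description and not independent support of the label. Levels are given in CPM, the usual scaled count: the summed UMIs of a gene in a group, scaled to the group’s total. Lrrc32 encodes GARP, the surface anchor that holds latent TGF-beta on Treg cells, and had 68.1 CPM (60.8 to 75.9) in the 783 cells. Foxp3-negative T cells had 7.72 CPM (6.83 to 8.70), a ratio of 8.82 (7.48 to 10.4). Gpr83, a G protein-coupled receptor enriched in Treg cells, stood at 51.7 CPM against 7.20 CPM, 7.17-fold higher (5.99 to 8.58). Ikzf4, which encodes the Foxp3 partner Eos, stood at 63.2 against 15.8 CPM and was 3.99-fold higher (3.46 to 4.60). Capn3, a calpain protease, was the least abundant of the 4 and stood at 23.5 against 8.38 CPM, 2.81-fold higher (2.24 to 3.50). A UMI of Lrrc32 was found in 23.4% of the 783 cells, of Gpr83 in 17.9%, of Ikzf4 in 27.7% and of Capn3 in 10.9%. In the B cells these shares were 1.71%, 0%, 0.426% and 0.213%, at the median depths given above. Each of the 4 genes was thus detected in a minority of the 783 cells and in fewer B cells.

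Genes were counted as higher or lower when they differed at least 2-fold on the scale of log2(CPM + 1), among genes with at least 10 CPM in 1 of the groups compared and outside the gates. Against Foxp3-negative T cells, 83 of 7198 genes (1.15%) were higher and 73 (1.01%) were lower in the Treg cells without effector markers, 2.17% in all, and the median log2 ratio of all genes was 0.09. A list of Treg identity genes stood far from this background, but it was chosen with earlier results of these data known. It also holds the markers Lrrc32, Gpr83, Ikzf4 and Capn3, so its counts are description and not independent support. Of its 20 measured genes outside the gates, 16 were at least 2-fold higher and 0 were lower, with a median log2 ratio of 1.63. The only 1 of the 20 with a negative ratio was Satb1, a chromatin organiser of T cell development, at 203 against 297 CPM. Several identity genes are abundant. Ikzf2, which encodes Helios, a zinc finger factor of thymus-derived Treg cells, was 4.50-fold higher (4.28 to 4.72), at 557 against 124 CPM. Izumo1r, the folate receptor 4 of Treg and anergic T cells, stood at 522 against 223 CPM. Nrp1, the semaphorin receptor neuropilin 1, stood at 90.3 against 39.7 CPM. Rgs1, a brake on chemokine receptor signals, stood at 221 against 74.3 CPM, and Swap70, a cytoskeletal adaptor, at 24.2 against 6.75 CPM. Among the 12 highest ratios were also Flicr, a non-coding RNA gene next to Foxp3, at 19.7 against 3.75 CPM, 5.27-fold higher (4.001 to 6.92), and the glutathione transferase gene Gsta4, at 13.4 against 2.72 CPM.

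**Figure D1:**
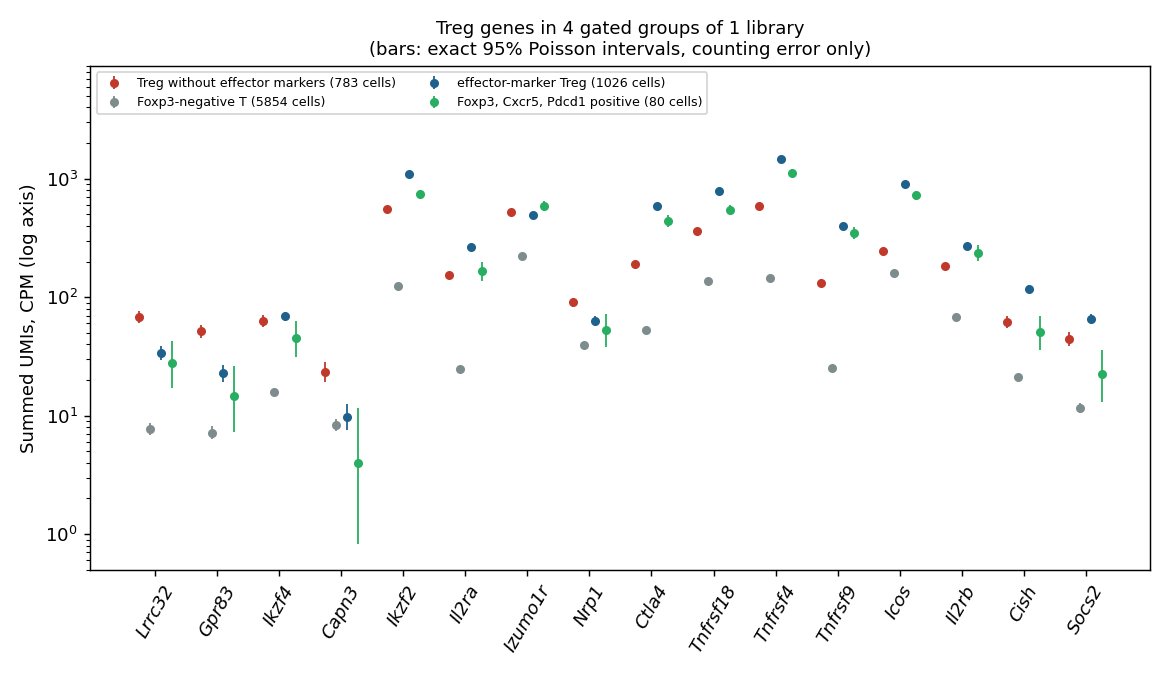
Levels of 16 Treg genes in CPM on a log axis, in the 4 gated groups, with points for the summed UMIs of a group and bars for exact 95% Poisson intervals. The Treg cells without effector markers lie above Foxp3-negative T cells for every gene shown, above effector-marker Treg cells for Lrrc32, Gpr83 and Capn3, and below them for Ctla4, Tnfrsf4, Tnfrsf9 and Icos.

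The interleukin 2 receptor and its feedback genes were part of the same difference. Il2ra, which encodes the high-affinity chain CD25, stood at 152.5 CPM against 24.6 CPM, 6.20-fold higher (5.60 to 6.85). Il2rb, the signalling chain shared with interleukin 15, reached 182 against 68.6 CPM, a ratio of 2.66 (2.45 to 2.87). The common chain Il2rg stood at 233 against 205 CPM. Downstream, Socs2 and Cish, feedback inhibitors induced by STAT5, were 3.85-fold (3.24 to 4.55) and 2.92-fold (2.55 to 3.35) higher, and the kinase gene Pim1 stood at 278 against 145 CPM. The STAT5 genes themselves were close, Stat5a at 31.9 against 21.6 CPM and Stat5b at 49.1 against 41.7 CPM. Of 14 measured genes of the interleukin 2 and STAT5 list, 4 were at least 2-fold higher and 0 lower, with a median log2 ratio of 0.59. Il2 itself was low in both, at 5.46 against 7.95 CPM.

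The promoters of Foxp3, Il2ra and Cish are shown because these genes stand for the lineage factor, the cytokine receptor and its feedback inhibitor. Each run is 1 strand, 5′ to 3′, from 250 bases before to 50 bases after a start site of the RefSeq table (GRCm38.p6), and capitals mark matches to TTCNNNGAA, the palindromic core that STAT factors bind. Foxp3 has 2 windows, of which the one at chrX:7580233-7580532 is printed and the one at chrX:7579426-7579725 has no match. The Il2ra window lies at chr2:11642542-11642841 and the Cish window at chr9:107296409-107296708, all on the plus strand.
Foxp3: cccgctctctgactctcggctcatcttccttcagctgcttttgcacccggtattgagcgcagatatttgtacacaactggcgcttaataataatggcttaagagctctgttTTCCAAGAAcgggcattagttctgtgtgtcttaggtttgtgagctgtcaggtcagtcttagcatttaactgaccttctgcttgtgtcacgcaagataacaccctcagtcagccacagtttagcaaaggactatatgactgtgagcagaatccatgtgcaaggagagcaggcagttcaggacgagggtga
Il2ra: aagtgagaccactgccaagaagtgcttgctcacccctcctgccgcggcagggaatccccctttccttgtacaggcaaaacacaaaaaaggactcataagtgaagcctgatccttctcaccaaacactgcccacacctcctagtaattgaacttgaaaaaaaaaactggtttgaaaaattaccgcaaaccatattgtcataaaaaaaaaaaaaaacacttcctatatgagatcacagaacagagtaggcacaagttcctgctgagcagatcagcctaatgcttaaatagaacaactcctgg
Cish: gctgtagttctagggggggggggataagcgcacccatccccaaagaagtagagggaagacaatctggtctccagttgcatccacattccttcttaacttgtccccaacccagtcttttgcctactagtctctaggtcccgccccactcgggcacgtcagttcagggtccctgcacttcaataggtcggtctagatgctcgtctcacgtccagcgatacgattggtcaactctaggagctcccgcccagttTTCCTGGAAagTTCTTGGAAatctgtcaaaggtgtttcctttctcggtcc
The Foxp3 window holds 1 match, TTCCAAGAA, and the Cish window 2, TTCCTGGAA and TTCTTGGAA, while the Il2ra window holds none. Of all 32851 windows of the table, 8.30% hold a match. Windows were found for 12 of 17 genes looked up, Foxp3 and the 16 higher identity genes, and 4 of their 15 windows hold one. In all, 6 motifs were searched on both strands, and the one in capitals was chosen after the matches were seen, so this share supports nothing. The others were TGTTTAC (1 of 15 windows against 3.65% of all), GGAAA (14 against 61.3%), TATAAA (3 against 13.6%), TGANTCA (1 against 7.81%) and a pattern like NF-kappa B sites, GGG and CCC with 4 bases between (4 against 11.9%). A match to TTCNNNGAA can overlap one to GGAAA. A match is a description of letters and not a binding site.

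Receptors of the TNF family followed, which give Treg cells costimulation. Tnfrsf4 (OX40) had 594 against 145 CPM, a ratio of 4.10 (3.91 to 4.29), and Tnfrsf9 (4-1BB) 132 against 25.1 CPM, a ratio of 5.25 (4.73 to 5.82). Tnfrsf18, the gene for GITR, stood at 359 against 137 CPM, and Tnfrsf1b, the TNF receptor 2, at 48.9 against 19.7 CPM. These were the 4 of 13 measured genes of the TNF receptor list that were at least 2-fold higher, with 0 lower and a list median of 0.40. The costimulator Icos was nearer to the comparison cells, at 245.5 against 159 CPM.

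Genes of suppressive molecules were higher in part. Ctla4, which strips costimulatory ligands from antigen-presenting cells, reached 190.3 against 53.3 CPM, a ratio of 3.57 (3.29 to 3.87). Entpd1 and Nt5e encode CD39 and CD73, which turn extracellular ATP into adenosine, and stood at 13.7 against 3.86 CPM and 63.4 against 29.3 CPM. Areg, the growth factor amphiregulin, was 6.42-fold higher (4.89 to 8.42), at 21.8 against 3.40 CPM, with 42 of its 104 UMIs in 1 cell. Il1r2, a decoy receptor for interleukin 1, stood at 36.3 against 10.6 CPM. Lag3, Tgfb1 and the galectin gene Lgals1 differed little, at 31.9 against 30.2, 107 against 89.9 and 433 against 431 CPM. Prf1, the cytotoxic pore protein perforin, was lower, at 16.8 against 36.1 CPM. In all, 8 of 14 measured suppressive genes were at least 2-fold higher and 1 lower, with a median log2 ratio of 1.16. That median was 0.65 when the cell with the most UMIs of each gene was left out of both groups, and −0.31 among the 33 and 522 cells left by a strict filter on Cd4 and lineage genes.

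Single cells carried some of the highest ratios. By the rule for named genes Il17a and Il10 ranked first, at 94.3 against 5.03 CPM and 46.8 against 2.03 CPM. One cell with 14146 UMIs held 401 of the 449 Il17a UMIs and 218 of the 223 Il10 UMIs. Only 4 and 5 of the 783 cells had a UMI of these genes. That cell had 1 UMI of Foxp3, 3 of Pdcd1, 215 of Ctla4, 56 of Tnfrsf9, 19 of Il2ra and none of Ikzf2 or Lrrc32. Without the highest cell of each gene, the log2 ratio of Il10 went from 3.98 to −0.46 and that of Il17a from 3.98 to 1.60. The same cell held 59 of the 82 UMIs of the stress gene Ndrg1. The ratios of Lrrc32 (2.99 to 2.97), Gpr83 (2.68 to 2.67), Il2ra (2.58 to 2.56) and Ikzf2 (2.16 to 2.15) hardly moved, and that of Ctla4 went from 1.82 to 1.46.

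Among the 73 genes that were lower than in Foxp3-negative T cells were genes used as markers of other lineages. Such a gene need not come from a cell of that lineage, and which comparison cells carried these genes was not tested. Gzma, a granzyme of cytotoxic and natural killer cells, stood at 8.82 against 88.3 CPM, 10.0-fold lower (7.39 to 13.9). The comparison cells were not selected on effector genes, and against those of them without Klrg1, Itgae and Gzmb the log2 ratio of Gzma was −0.58, from −3.18, with 110 genes higher and 76 lower. The chemokine gene Ccl5 stood at 57.8 against 259 CPM. Among the 12 lowest were also the complement gene C1qa (1.05 against 12.6 CPM), the plasmacytoid gene Pld4 (1.68 against 21.0 CPM), the lipoprotein gene Apoe (8.19 against 49.9 CPM), the MHC class II gene H2-Aa (21.2 against 113 CPM) and the Fc receptor chain Fcer1g (11.97 against 63.9 CPM). Of the marker list of CD8, NK and gamma-delta T cells, 6 of 9 measured genes were at least 2-fold lower, and the list summed to 168 against 572 CPM. Of the myeloid and dendritic list, 7 of 9 were lower, with sums of 512 and 1163 CPM, and Xcr1 and Adgre1 were at 0 in the 783 cells. Of the B cell list, 5 of 8 were lower, with sums of 889 and 1350 CPM. A UMI of Cd8a was found in 4 of the 783 cells (0.511%) and in 2.101% of Foxp3-negative T cells, and a UMI of Cd4 in 50.8% and 56.1%. When cells with 2 or more UMIs over 16 genes of such lineages were left out (57 of the 783), a filter added after the data were seen, 23 genes were lower, 19 of them among the 73, and 91 were higher, 75 of them among the 83. With the same filter Apoe went from a log2 ratio of −2.47 to 0.10 and the chemokine gene Ccl8 from −2.53 to 0.53. The filter removes cells by genes of the same kind as those that were lower.

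Detection of several Treg genes in the same cell was counted over Il2ra, Ikzf2, Ikzf4, Ctla4, Tnfrsf18, Lrrc32, Gpr83, Tnfrsf4 and Capn3. Each cell was thinned to 3000 UMIs first, which left out 74 of the 783 cells and 477 Foxp3-negative T cells. At least 2 of the 9 genes were found in 71.7% of Treg cells without effector markers (68.2 to 74.9), in 22.3% of Foxp3-negative T cells (21.2 to 23.5) and in 1.17% of B cells (0.381 to 2.71). The share was 93.1% in effector-marker Treg cells (91.2 to 94.6) and 81.0% in Foxp3, Cxcr5 and Pdcd1 positive cells (70.6 to 89.0). Without thinning, 54 of the 783 cells (6.90%) had none of the 9 genes and 56.6% had 4 or more. Among Foxp3-negative T cells, 9.89% had 4 or more without thinning. Detection of Foxp3 itself depended on depth. Of the 387 thinned cells with 1 Foxp3 UMI before thinning, 55.0% still had it. Whether Foxp3-negative T cells with several of the 9 genes were Treg cells with undetected Foxp3 was not tested. At every cut-off counted, the share in cells without effector markers lay between those in Foxp3-negative T cells and effector-marker Treg cells. Which of the 2 was nearer depended on the cut-off. After thinning, at least 4 genes were found in 35.0% of cells without effector markers. This share was 5.04% in Foxp3-negative T cells and 65.7% in effector-marker Treg cells.

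**Figure D2:**
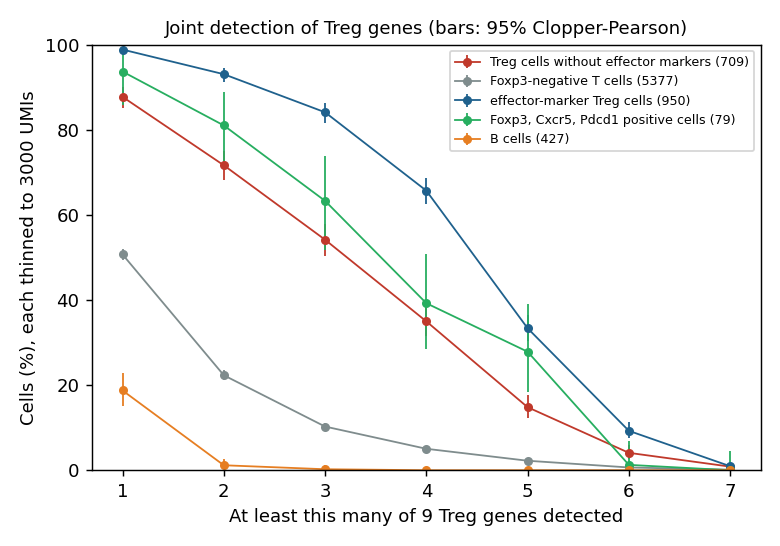
Share of cells (%) with at least a given number of 9 Treg genes detected, after thinning each cell to 3000 UMIs, with exact 95% intervals. At 2 or more genes the Treg cells without effector markers stand at 71.7%, below effector-marker Treg cells at 93.1% and above Foxp3-negative T cells at 22.3% and B cells at 1.17%.

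Most Treg genes were higher in cells with more Foxp3 UMIs. Lrrc32 stood at 49.1 CPM (40.9 to 58.4) in cells with 1 Foxp3 UMI, 68.4 (53.3 to 86.4) with 2 and 110.4 (92.1 to 131) with 3 or more, against 7.72 in Foxp3-negative T cells. Il2ra went from 105 (93.0 to 118) through 171 to 243 CPM (215 to 273), and Tnfrsf18 from 256 through 445 to 514 CPM. Swap70 stood at 12.4 CPM with 1 Foxp3 UMI, and at 36.1 and 40.0 with more. Ikzf2 stood at 431, 740 and 678 CPM, so the step lay between 1 and 2 UMIs. Ctla4 showed no such order in CPM, at 193, 171 and 201, but 215 of the 500 Ctla4 UMIs in the class with 1 Foxp3 UMI came from the single cell described above. The share of cells with a Ctla4 UMI was 31.5%, 46.8% and 58.9% in the 3 classes. Capn3 stood at 25.9, 26.4 and 15.7 CPM with overlapping intervals. Cells with 1 Foxp3 UMI were nonetheless above Foxp3-negative T cells in Lrrc32, Gpr83, Ikzf4, Il2ra and Ikzf2. Median UMIs per cell were 5382, 5510 and 5679 in the 3 classes. The share of cells with free-RNA Foxp3 may differ between the classes, which was not tested.

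**Figure D3:**
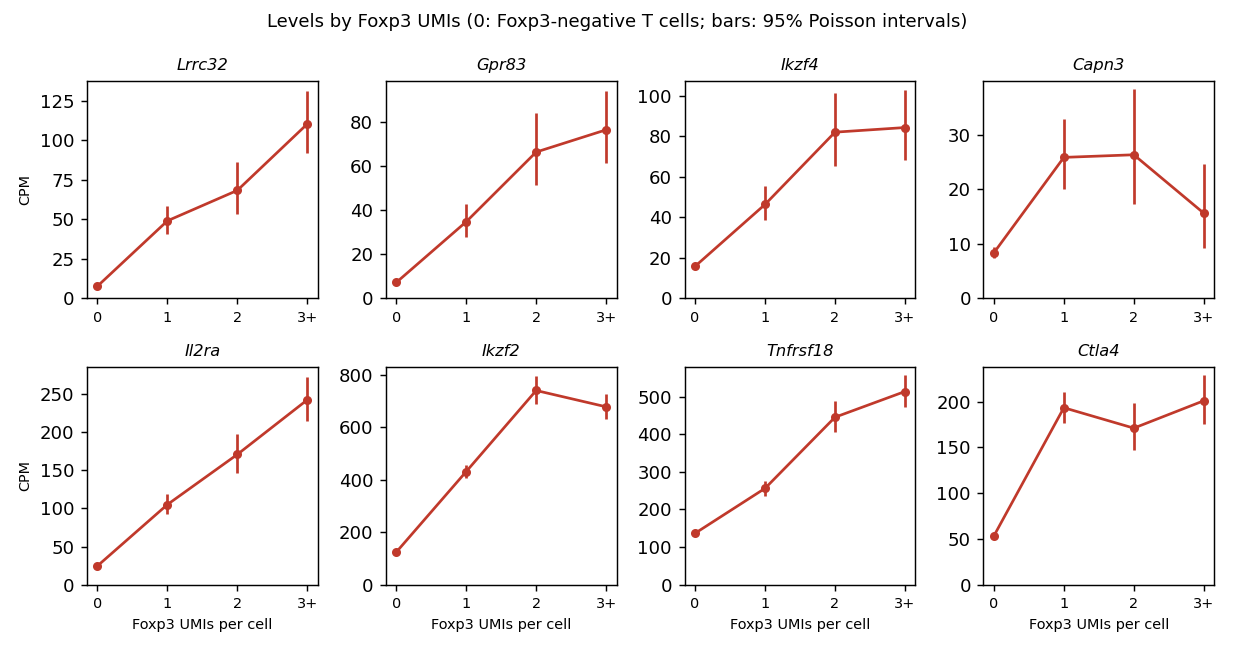
Levels in CPM of 8 genes against Foxp3 UMIs per cell (0 for the 5854 Foxp3-negative T cells, then 1, 2 and 3 or more within the 783 cells), with exact 95% Poisson intervals. Lrrc32 and Il2ra are higher at each step, Ikzf2 and Ikzf4 level off from 2 UMIs, and Ctla4 is at 193, 171 and 201 CPM in the 3 Foxp3-positive classes, with 215 UMIs of the first from 1 cell.

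Against effector-marker Treg cells, the cells without these markers had higher levels of 10 of 20 genes of resting lymphocytes and lower levels of most measured effector genes. Of 7476 genes, 58 (0.776%) passed 2-fold upward and 300 (4.01%) downward, 4.79% in all, and the median log2 ratio of all genes was −0.12. On the list of resting and lymphoid homing genes, 0 were at least 2-fold lower and the median was 1.01. On the list of the effector Treg state, outside the gate genes, 17 of 19 were lower and 0 higher, with a median of −1.66. The gate removed cells by 3 genes of that state, so cells with its other genes were in part removed with them.

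Bcl2, the survival factor of resting lymphocytes, stood at 250.8 CPM in the 783 cells against 73.2 CPM in effector-marker Treg cells, 3.43-fold higher (3.08 to 3.81). Ccr7, the receptor that guides T cells into lymph node T zones, stood at 170 CPM (158 to 182) against 57.0 CPM, 2.98-fold higher (2.64 to 3.37). Tcf7, the Wnt pathway factor TCF-1, stood at 198 against 75.1 CPM, and Bach2, a repressor of effector differentiation, at 49.4 against 18.01 CPM. Ly6c1, a surface antigen of central T cells, stood at 102 against 30.7 CPM. Treml2 and the ganglioside synthase gene St8sia1 were among the 8 highest ratios, at 40.5 against 12.3 and 20.6 against 6.44 CPM. Klf2, which drives the egress receptor gene S1pr1, stood at 509 against 363 CPM. Il7r went the other way, at 226 against 355 CPM. Compared with Foxp3-negative T cells, however, the resting list had 0 of 20 genes higher and 1 lower, Dapl1 at 69.7 against 195 CPM, with 14 of 20 below 0 and a median of −0.21. Tcf7 and Lef1 stood at 331 and 279 CPM there, against 198 and 165 CPM in the 783 cells.

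The effector side was led by chemokine and lipid mediator receptors. Ccr2, which guides cells to inflamed tissue, stood at 64.7 against 451 CPM, 6.97-fold lower (6.20 to 7.86). Ltb4r1, the leukotriene B4 receptor, stood at 6.30 against 100.1 CPM, and Ccr10, a skin-homing receptor, at 1.47 against 28.5 CPM. Ccr1 and Ccr3 stood at 1.05 against 19.0 and 0.630 against 14.6 CPM. In all, 8 of 16 measured chemokine and egress receptor genes were lower and 2, Ccr7 and Gpr83, were higher. The calcium-binding genes S100a6 and S100a4 stood at 460.0 against 2895 and 507 against 2806 CPM. Prdm1, the effector regulator Blimp-1, stood at 10.7 against 58.7 CPM, and Maf, a driver of interleukin 10, at 209.8 against 674 CPM. Il1rl1 (the interleukin 33 receptor) stood at 5.04 against 40.0 CPM. Of these genes, S100a6, Ccr2 and Prdm1 stood at 475, 59.7 and 7.40 CPM in Foxp3-negative T cells, nearer to the 783 cells than effector-marker Treg cells were. Foxp3-negative T cells were not selected on Klrg1, Itgae or Gzmb, and the part of this difference in choice was not tested. The largest differences of all were haemoglobin genes, such as Hba-a1 at 0.630 against 625 CPM, but 3 effector-marker cells held 99.9% of the globin UMIs of that group.

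**Figure D4:**
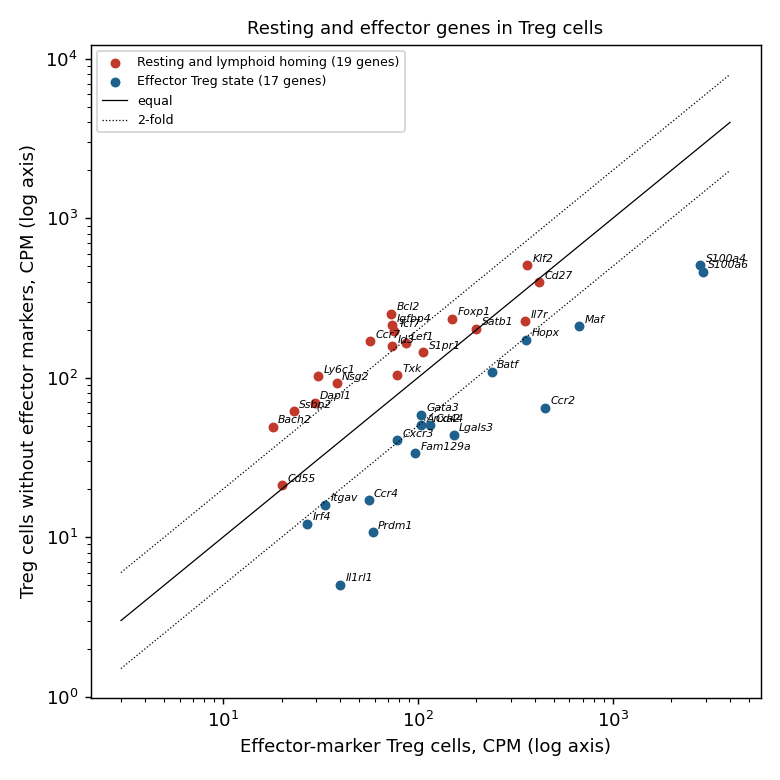
Level in Treg cells without effector markers (vertical, CPM, log axis) against effector-marker Treg cells (horizontal, CPM, log axis) for 19 resting and 17 effector state genes, with lines at equal level and at 2-fold. Bcl2, Ccr7 and Tcf7 lie above the upper 2-fold line, and S100a6, Ccr2 and Prdm1 lie below the lower one.

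Treg identity and suppression split across the same comparison. Gpr83 and Capn3 were at least 2-fold higher in the cells without effector markers, at 51.7 against 22.7 and 23.5 against 9.81 CPM, and Lrrc32 stood at 68.1 against 34.0 CPM, with a log2 ratio of 0.98. Ikzf4 and Izumo1r were close, at 63.2 against 68.8 and 522 against 492 CPM. In contrast 7 of the 21 measured identity genes were lower, among them Ctla4 (190.3 against 591 CPM, 3.11-fold, 2.89 to 3.34), Icos (245.5 against 900 CPM), Tnfrsf4 (594 against 1468 CPM) and Tnfrsf9 (132 against 401 CPM). Il2ra stood at 152.5 against 268 CPM and Ikzf2 at 557 against 1105 CPM. Foxp3, on which both gates rest, stood at 307 against 383 CPM. Of 17 measured suppressive genes, 11 were lower and 1, Il10, was higher. The Il10 value rests on the single cell described above, without which its log2 ratio was −3.21. Areg, Il1r2 and Penk, the enkephalin precursor gene, stood at 21.8 against 94.1, 36.3 against 112 and 19.7 against 146 CPM.

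Against the 80 Foxp3, Cxcr5 and Pdcd1 positive cells, the cells without effector markers had lower levels of most measured follicular genes. The 80 cells were chosen on Cxcr5 and Pdcd1, which belong to that programme, so the choice of cells favours this direction. Of 7648 genes, 182 (2.38%) were higher and 456 (5.96%) lower by the same rule, 8.34% in all, so that 28.5% of these genes were higher. Under trimmed mean (TMM) scaling, by which all ratios shifted by 0.19, the counts were 301 and 281, or 51.7% higher, and without the highest cell of each gene they were 328 and 268. Of 17 measured follicular genes outside the gates, 12 were lower and 0 higher, with a median of −1.67, and the list summed to 1554 against 3662 CPM. Against Foxp3-negative T cells the same list summed to 1554 against 1424 CPM, with 8 of 11 measured genes above 0, 0 past 2-fold and a median of 0.38. Sostdc1 stood at 3.36 against 85.0 CPM (65.4 to 108), 25.3-fold lower (14.4 to 46.9). Il21 and Il4, cytokines that help B cells, stood at 1.89 against 33.2 and 1.47 against 43.8 CPM. Tox2 and Bcl6, factors of the follicular fate, stood at 10.5 against 88.9 and 7.77 against 23.9 CPM. Maf stood at 209.8 against 897 CPM and Lag3 at 31.9 against 169 CPM. Foxp3-negative T cells, which lack Cxcr5 and Pdcd1 by the rule, had 3.60 CPM of Sostdc1, 4.23 of Il21, 1.83 of Il4, 11.7 of Tox2 and 8.26 of Bcl6.

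In the other direction Lrrc32 stood at 68.1 against 27.9 CPM, Gpr83 at 51.7 against 14.6 CPM and Capn3 at 23.5 against 3.98 CPM. Ccr7 stood at 170 against 63.7 CPM, Klf2 at 509 against 187 CPM and Bcl2 at 250.8 against 88.9 CPM, and 9 of 20 resting genes were at least 2-fold higher with 0 lower. The 80 cells were not selected on Klrg1, Itgae or Gzmb, which were found in 10, 28 and 25 of them. The part of this difference in choice in the resting genes was not tested. Il2ra was close, at 152.5 against 166 CPM. Ly6c1 stood at 102 against 26.6 CPM and Igfbp4 at 214 against 70.3 CPM. The group of 80 cells held 753338 UMIs, so 3 UMIs correspond to 3.98 CPM there, and the intervals of low genes are wide.

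**Figure D5:**
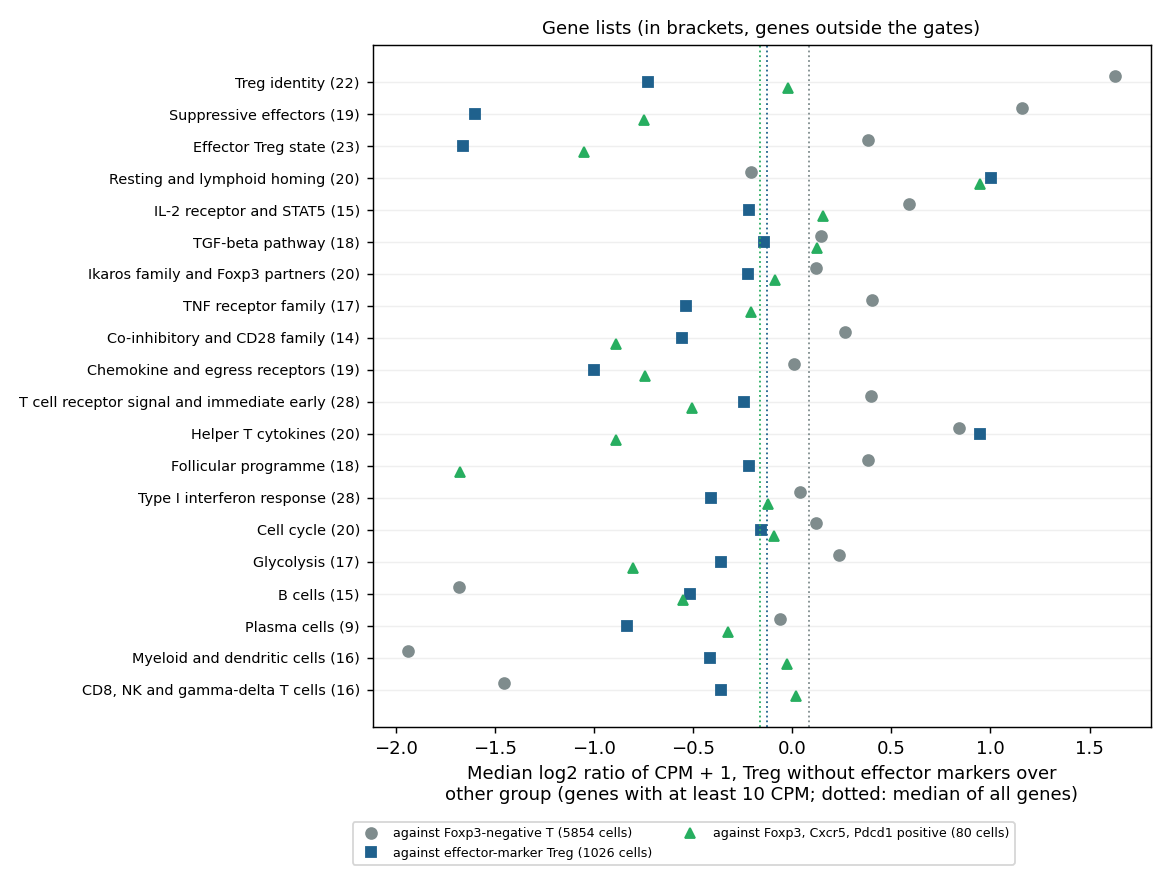
Median log2 ratio of CPM + 1 of 20 gene lists in Treg cells without effector markers over each of the other 3 groups, with dotted lines at the median of all genes. Treg identity is highest against Foxp3-negative T cells at 1.63, the effector Treg state is at −1.66 against effector-marker Treg cells, and the follicular programme is at −1.67 against Foxp3, Cxcr5 and Pdcd1 positive cells.

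The other lists had at most 2 genes past 2-fold against Foxp3-negative T cells, where the median of all genes was 0.09. The type I interferon list had 0 of 27 genes higher and 1 lower (median 0.04), and the cell cycle list 0 of 12 either way (median 0.12). Dividing cells were left out of both groups by the gate, so the choice of cells favours a small difference in the cell cycle list. The TGF-beta list had 1 of 16 higher, Lrrc32 itself (median 0.15), and the glycolysis list had 1 of 14 higher, the glucose transporter Slc2a3 at 31.5 against 12.5 CPM (median 0.24), with a ratio above 0 in 14 of 14 genes. Genes of T cell receptor signalling had a median of 0.40, as high as that of the TNF receptor list, with 20 of 22 above 0. At least 2-fold higher were 2 of 22, the immediate early gene Nr4a1 at 14.7 against 6.23 CPM and Egr2 at 10.1 against 4.49 CPM. Foxp3-negative T cells lack Pdcd1 by the rule, while the Treg cells without effector markers were not selected on it. Among the latter, cells with Pdcd1 had a list median of 0.63 over those without, with 24 of 26 genes above 0. The part of this difference in choice was not tested. Of the Ikaros family and Foxp3 partners, 2 of 19 were higher, Ikzf2 and Ikzf4. Foxo1, Runx1 and Rel stood at 111 against 98.1, 53.3 against 53.8 and 68.9 against 46.2 CPM.

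The 783 cells differed among themselves. Tnfrsf9, the 4-1BB gene, was found in 188 cells, with medians of 5461 and 5506 UMIs with and without it. Of 7458 genes, 325 (4.36%) were higher and 95 (1.27%) lower. The cell that held most Il17a and Il10 UMIs is among the 188, with 215 of their 524 Ctla4 and 250 of their 1743 Gapdh UMIs, and so enters the suppressive and glycolysis values. On the suppressive list 9 of 16 genes were at least 2-fold higher, and on the effector state list 9 of 17, with medians of 1.26 and 1.04. Tnfrsf4 stood at 1414 against 306 CPM, Il1r2 at 105 against 12.2 CPM, Areg at 63.1 against 7.38 CPM (log2 ratio 2.94, and 2.17 without its highest cell in each class), Penk at 55.8 against 7.09 CPM and Prdm1 at 25.9 against 5.39 CPM. Of the 17 measured glycolysis genes, all had a ratio above 0, with Pkm at 596 against 299 CPM. In the same cells Tcf7 stood at 138 against 219 CPM. Of the myeloid list, 4 of 8 genes were higher and 1 lower (median 1.10), among them Lyz2 at 176 against 27.8 CPM and S100a8 at 113 against 15.9 CPM. One cell held 200 of the 217 Lyz2 UMIs and 120 of the 140 S100a8 UMIs of the class, and without the highest cells their log2 ratios were −0.54 and 0.074. Of the B cell list, 4 of 8 genes were lower and 0 higher. The part of these lineage genes in the other values was not tested. These values are those of effector genes within cells in which no UMI of Klrg1, Itgae or Gzmb was found.

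Ikzf2 (Helios) was found in 531 cells and not in 252, at similar depth (medians of 5408 and 5586 UMIs). Of 7364 genes, 173 (2.35%) were higher and 66 (0.896%) lower with Ikzf2. Without the highest cell of each gene 213 were higher and 29 lower. With all cells kept, the lowest ratios included Il10, Il17a, Cdkn1a and Cxcl3, whose UMIs without Ikzf2 came mostly from the single cell described above. Of the B cell list 5 of 9 genes were lower with Ikzf2 and 0 higher (median −1.09), and their part in the other values was not tested. On the Treg identity list 10 of 20 genes were higher and 0 lower, with a median of 0.97. Ikzf4 stood at 79.8 against 26.8 CPM, Lrrc32 at 84.1 against 32.9 CPM, Gpr83 at 63.0 against 26.8 CPM, Nrp1 at 112 against 41.6 CPM and Tnfrsf4 at 772 against 203 CPM. Foxp3 stood at 332 against 251 CPM. Igfbp4 and Dapl1, genes of naive-like cells, were higher in the cells without Ikzf2, at 147 against 360 and 49.5 against 114 CPM. Of the cells with Lrrc32, 85.2% also had Ikzf2, against 62.5% of those without Lrrc32. For Il2ra these shares were 65.6% and 34.2%. Even without Ikzf2, Lrrc32 at 32.9 CPM and Gpr83 at 26.8 CPM were above the 7.72 and 7.20 CPM of Foxp3-negative T cells.

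Pdcd1 was found in 112 cells, with a median of 5285.5 UMIs against 5515 in the 671 cells without it. Of 7454 genes, 335 (4.49%) were higher and 119 (1.6%) lower, but 171 were higher and 224 lower without the highest cell of each gene. On the follicular list 8 of 14 genes were higher, with a median of 1.14, although Cxcr5 was absent by the rule. The list of CD8, NK and gamma-delta T cells had 3 of 6 genes higher (median 1.58) and the myeloid list 4 of 7 lower (median −1.49), and their part in the other values was not tested. Tox2 stood at 38.2 against 5.67 CPM, Maf at 438 against 170 CPM, Lag3 at 96.3 against 20.7 CPM and Sostdc1 at 15.6 against 1.23 CPM. Nr4a1, which follows T cell receptor signals, had 56.7 against 7.40 CPM, a ratio of 7.66 (4.65 to 12.7), and 9 of 26 genes of receptor signalling were higher. The cell that held most Il17a and Il10 UMIs is among the 112, and Ctla4, at 506 against 135 CPM, went from a log2 ratio of 1.89 to 0.62 without its highest cell in each class. The 6 highest ratios, Il10, Il17a, Cxcl3, Cdkn1a, Ndrg1 and Emp1, are not described further for that reason.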

How the data were processed

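The deposited matrix holds raw UMI counts per gene and cell of 1 library, made by the authors with Cell Ranger. The submitters' processing notes name version 2.1.0 and the matrix header 3.1.0, and the sources used here do not give the genome build of this matrix. Left out were 835 of 15002 barcodes for having fewer than 500 genes and 977 for 10% or more mitochondrial UMIs. Counts were summed per group and scaled to CPM. Intervals are exact (Poisson for a level, conditional binomial for a ratio, Clopper-Pearson for a share) at 95%. Genes needed 10 CPM in 1 group, the pseudocount was 1 CPM, and 14 gate genes were left out of counts of genes. Detection was also counted after thinning to 3000 UMIs per cell. Doublets were not called, and leaving out the deepest 10% of cells was tried instead. Scripts used Python 3.11.15, numpy 2.4.6, scipy 1.17.1 and pandas 2.3.3, and were tested on simulated data.

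The members and the 20 gene lists were chosen with earlier results of these data known. Named genes were the markers, the 12 highest and 12 lowest ratios against Foxp3-negative T cells, 8 each way in the other comparisons, 6 each way in the splits and up to 5 per list. Other list members were named as examples after their values were seen. The cells were also split by Pdcd1, Tnfrsf9 and Ikzf2. Some genes of the lists and 1 further split are not reported here.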

Additional observations from a re-analysis of the deposited data

How the results depend on the processing

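No paired analysis was possible because all cells come from 1 library, and no replicate could be left out. Of 1783 values of named genes under alternatives, 1275 stayed close to the reported value and 474 moved. Another 34, reported at 2-fold or more either way, changed sign. Of 814 list medians, 686 stayed close, 124 moved and 4 of 2-fold or more changed sign. Of 72 values of named genes in the splits, only 6 stayed close, 63 moved and 3 of 2-fold or more changed sign. Sign changes of smaller values were not counted apart. The causes of the changes below were not tested. Against Foxp3-negative T cells, the 83 higher and 73 lower genes became 168 and 271 with no filter on low values, 23 and 18 with at least 50 CPM, and 141 and 116 with at least 2 Foxp3 UMIs. Lower genes numbered 137 with no condition on cycling in the comparison cells. Against effector-marker Treg cells, the 58 higher and 300 lower genes became 168 and 648 with no filter and 23 and 124 with at least 50 CPM, and higher genes numbered 102 after thinning and 38 with a pseudocount of 5 CPM. Against the Foxp3, Cxcr5 and Pdcd1 positive cells, the 182 higher and 456 lower genes became 301 and 281 with trimmed mean scaling, 613 and 921 after thinning, 887 and 1119 with no filter, 26 and 130 with at least 50 CPM, 83 and 273 with a pseudocount of 5 CPM, and 328 and 268 without the highest cell of each gene. Higher genes numbered 284 as a mean over cells, 302 under 5% mitochondrial UMIs and 347 with at least 2 Foxp3 UMIs. Trimmed mean scaling moved the share of higher calls against effector-marker Treg cells from 16.2% to 25.9%.

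The share of members, 5.94% of cells, was 2.66% with at least 2 Foxp3 UMIs, 5.12% with gates set after thinning and 4.38% with the planned filter to Cd4-positive cells with under 3 UMIs of 41 lineage genes. That filter left 33 members and 522 Foxp3-negative T cells, gave 797 higher and 851 lower genes, and was not run for the other comparisons, where 10 and 0 comparison cells remained. Under it the median of suppressive genes was −0.31 and of B cell genes 0.042, and log2 ratios were Apoe 0.11, H2-Aa 0.39, Xcl1 2.90, Il17a −0.84, Il10 −1.36, Ndrg1 −1.57, Il1r2 −2.61, Socs2 −0.54, Ccr9 1.54, H2-Ab1 1.65, H2-Eb1 1.50, S100a9 0.72, S100a8 0.39 and Ccl5 0.30. The filter on 16 lineage genes, added after the data were seen, gave 23 lower genes, medians of 0.79 for B cell and 0.15 for myeloid genes, and Klk1 0.12, Ccl8 0.53, Apoe 0.10, Il10 −0.43, Ccr9 0.92, Ly6d 0.15, Cd74 0.95, S100a9 0.017, S100a8 0.47, and Il17a −1.24 against effector-marker Treg cells. With at least 2 Foxp3 UMIs, Il17a was −2.59 and Il10 −0.093, and Il17a −5.14 against effector-marker Treg cells. Without the deepest 10% of cells, Il10 was −0.44 and S100a9 0.019, and against effector-marker Treg cells Hba-a1 was 0.21, Hbb-bt 0.39 and Hba-a2 0.98. Il10 was −0.46 without its highest cell, an alternative added after the data were seen, and −1.28 in members without Pdcd1.

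Among the splits, higher and lower genes after thinning numbered 736 and 415 for Pdcd1, 620 and 236 for Tnfrsf9 and 431 and 151 for Ikzf2. Without the highest cell of each gene the Pdcd1 split had 171 and 224, and 29 genes were lower with Ikzf2. Hp was then −0.033 in the Tnfrsf9 split, and Il10 0.94 and Cdkn1a 0.60 in the Ikzf2 split.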
